A study of Caenorhabditis elegans with 8 samples.

Results

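The histone genes his-1 to his-74 of the nematode Caenorhabditis elegans were followed in iCLIP libraries of the germline protein FOG-3. They were taken as the gene rows whose WormBase numbers run from WBGene00001875 to WBGene00001948 in order, which is 74 IDs. The table held a row for 71 of them, out of 12240 gene rows in all. For his-1, his-23 and his-74 no row was used here. iCLIP fixes RNA to a protein with ultraviolet light, purifies the protein and sequences the RNA that comes with it. The FOG-3 group was 4 libraries of fourth-stage (L4) larvae with an integrated single copy of FLAG-tagged FOG-3, purified with the FLAG antibody. The control group was 4 libraries of the same worms, tag included, taken through the purification without that antibody, so that it shows RNA carried along without FOG-3 being captured. The FOG-3 libraries are called F1 to F4 and the controls N1 to N4, in alphabetical order of the tags in their column names. No label ties these tags to a numbered replicate, so the same number in both groups pairs nothing. The material was whole larvae, so fewer cells of a type and less RNA per cell cannot be told apart.

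Histones package DNA into nucleosomes. H2A, H2B, H3 and H4 form the core that DNA wraps around, and H1 binds the linker DNA between cores. Cells that replicate their DNA, such as the mitotic germ cells of a larva, need much histone protein during S phase, and most core histone mRNAs end in a stem-loop instead of a poly(A) tail. H3.3 is the replacement form of H3, laid down outside replication. FOG-3 belongs to the Tob/BTG protein family and is required for the sperm fate of germ cells.

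The symbols rest on the consecutive numbering of the IDs, since the count table has no symbols and the RefSeq gene table has no WormBase IDs. Of the 71 symbols, 70 were found in that table, and the exception was his-36. Its gene lengths sorted most rows into core classes, since each core histone has an intronless coding region of a typical length. There were 15 rows with the length of H2A, 15 with that of H2B, 15 with that of H3 and 14 with that of H4. The linker histone gene his-24 (H1) and the H3.3-like genes his-69, his-70, his-71 and his-72 were placed from background knowledge. The other 7 rows (his-35, his-36, his-37, his-39, his-41, his-57 and his-73) had other lengths or none and were left without a class.

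Many histone rows repeated the counts of another. With sets of at least 3 reads, 10 sets took in 23 rows whose counts were the same in all 8 libraries. Among them were the H2A rows his-21 and his-51, with 41 reads each, and his-19 and his-53, with 37 each. The row his-57 had the same 41 reads as the H2A gene his-65, and his-39 the same 10 reads as the H2B genes his-22 and his-52. The H4 rows his-10, his-14 and his-26 shared a profile of 9 reads. The other 5 sets were his-9 and his-13 (14 reads), his-46 and his-56 (12), his-8, his-20 and his-54 (11), his-27 and his-49 (7), and his-28 and his-50 (3). Of the 10 sets, 8 lay within 1 class, and the other 2 joined a class to 1 row without a class. In RefSeq order, with genes within 50000 bp taken as neighbours, the histone genes fell into 16 groups, and 3 of the 10 sets spanned more than 1 group. Of histone rows with 30 or more reads, 6 of 17 (35.3%) had an identical partner, against 56 of 2190 (2.56%) of all other gene rows with that many. Between 10 and 29 reads it was 33.3% of 30 histone rows, against 18.1% of 2268 others. Whether such rows hold the same reads counted more than once was not tested, and a difference between close copies is uncertain for this reason. Totals are therefore given in 3 ways. All 71 rows held 1187 reads in the FOG-3 group, against 207 in the control group. The 55 distinct profiles held 1002 and 174. Counting only the largest row of each of the 6 classes in each library leaves 258 and 47, the fewest reads that could account for the classed rows if no read was shared between classes.

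FOG-3 libraries held 76790 to 186739 gene-assigned reads and controls 14964 to 74892. A single read was worth 5.36 CPM (the read count over the gene-assigned reads of its library, scaled to 1 total for all libraries) in the deepest library and 66.8 CPM in the shallowest, and a count of 0 allows up to 3 reads, or 16.1 and 200.5 CPM. The most abundant gene row took 27.9% of gene-assigned reads in the FOG-3 group and 49.8% in controls, so that the share left to every other gene differs between the groups. Intervals and floors cover counting error only.

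Histone reads made up a larger share of all gene-assigned reads after FOG-3 purification. The FOG-3 libraries F1 to F4 held 204, 228, 179 and 576 histone reads. The controls N1 to N4 held 40, 37, 10 and 120. As a share, this was 0.253% (95% exact Clopper-Pearson interval 0.220% to 0.291%), 0.235% (0.205% to 0.267%), 0.233% (0.200% to 0.270%) and 0.308% (0.284% to 0.335%) in the 4 FOG-3 libraries in the same order. In the controls it was 0.131% (0.0933% to 0.178%), 0.198% (0.140% to 0.273%), 0.0668% (0.0321% to 0.123%) and 0.160% (0.133% to 0.192%). Every FOG-3 library lay above every control, although the intervals of the control N2 and of all 4 FOG-3 libraries except F4 overlapped. The mean share was 0.257% ± 0.0352 in the FOG-3 group and 0.139% ± 0.0555 in controls (SD, n = 4 each), a ratio of 1.85 with p = 0.0286 in a two-sided exact permutation test, the smallest p that 4 against 4 allows. With each identical profile entered once the ratio was 1.84, and with the fewest reads that could account for the classed rows it was 1.68, both with an exact permutation p of 0.0286. Leaving out F1, F2, F3 or F4, each in turn, gave an exact permutation p of 0.0571.

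**Figure D1:**
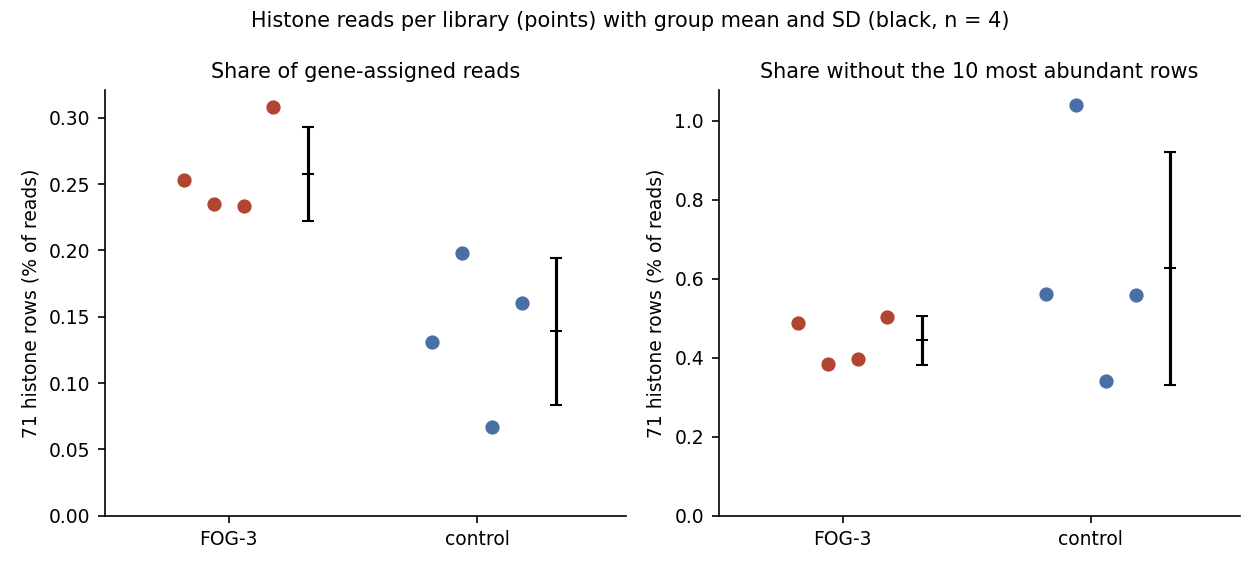
Share of reads in the 71 histone rows (vertical axis, percent) in each of 4 FOG-3 and 4 control libraries (points), with the group mean and SD in black. On the left, as a share of gene-assigned reads, every FOG-3 library (0.233% to 0.308%) lies above every control (0.0668% to 0.198%). On the right, with the 10 most abundant gene rows left out of the total, the groups overlap (0.385% to 0.505% in FOG-3 and 0.342% to 1.04% in controls).

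The larger share did not hold once the dominant rows were left out of the total. Without the most abundant gene row the share was 0.356% ± 0.0396 in the FOG-3 group and 0.276% ± 0.116 in controls (SD, n = 4 each, exact permutation p = 0.257). Without the 10 most abundant gene rows it was 0.444% ± 0.0614 in the FOG-3 group and 0.626% ± 0.295 in controls, a ratio of 0.709 with an exact permutation p of 0.20. The control N2, at 1.04%, stood highest and the control N3, at 0.342%, lowest. Histone rows were thus a larger part of the whole table after purification of FOG-3, and not detectably a larger part of what lay outside its most abundant rows.

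In the count model, the summed histone reads lay below the median of the tested rows. With each identical profile entered once and TMM scaling, the histone sum had a log2 fold change of -0.41 ± 0.22 (SE, FOG-3 over control, edgeR quasi-likelihood adjusted p = 0.081). Its direction turned with the scaling. It was 0.85 ± 0.22 with total counts alone (edgeR adjusted p = 0.00021), 0.74 ± 0.23 with the size factors of DESeq2 in edgeR (adjusted p = 0.0026) and 1.65 ± 0.26 when libraries were scaled on the most abundant gene row (edgeR adjusted p = 4.8e-10). The median over all tested rows moved with it and was 0.73 with TMM and 2.68 under scaling on the most abundant row. The histone sum lay 1.14 below that median with TMM, and 0.92 to 1.21 below it in log2 units in all 11 fits that kept every library. These medians cover the rows each fit tested, with the filter on low counts in 9 fits, a looser one in 1 and none in 1. Rows can pass either filter through the deeper FOG-3 libraries alone, so the medians and the gaps to them also depend on filter and depth. With no filter the median was 1.15, and his-38, with 1 read in 1 FOG-3 library, also had 1.15. With TMM scaling, the sum passed the threshold without FOG-3 library F4 (-0.53, edgeR adjusted p = 0.021). The log2 fold change was 0.04 without FOG-3 library F1 (edgeR adjusted p = 0.89), -0.04 without control N2 (adjusted p = 0.94), -0.19 without control N1 (adjusted p = 0.67) and 0.23 without control N4 (adjusted p = 0.48). Each fit without 1 library was filtered and scaled anew, so the median of its tested rows moved too. That median was 1.29 without F1, 1.00 without N2, 1.23 without N1 and 1.78 without N4. In the fits without 1 library, the histone sum lay from 0.95 (without F2) to 1.56 (without N4) below the median.

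**Figure D2:**
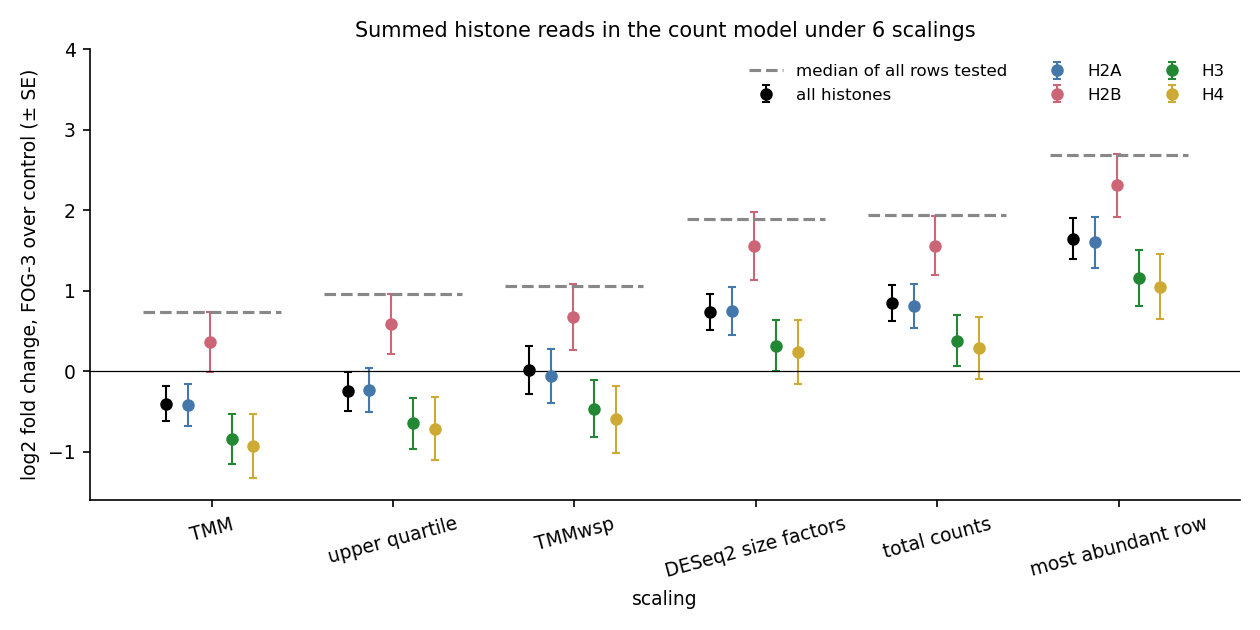
Log2 fold change of FOG-3 over control (vertical axis, ± SE) from edgeR for the histone sum and for the sums of 4 core classes, under 6 scalings (horizontal axis). Each identical profile was entered once. Dashed lines mark the median of all rows tested, 0.73 with TMM and 2.68 when scaled on the most abundant row. The histone sum stays below it under each scaling, and the H2B sum lies nearest to it.

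Row by row, the histone genes were too sparse for the main test. Of the 71 rows, 1 passed edgeR's default filter, the H2A gene his-47 (WBGene00001921), and 0 were called, where 72.8% of the 886 rows tested were called, 45.3% higher and 27.5% lower. At an unadjusted p under 0.05 the count was 1. With DESeq2 the count called was also 0 (73.3% of all tested rows called, 63.4% higher and 9.82% lower), and with limma-voom it was 1, called lower (71.1% called, 44.2% higher and 26.9% lower). With a filter of 1 CPM in at least 4 libraries, 52 histone rows were tested and 1 was called higher and 0 lower, against 22.3% and 3.65% of 5258 rows (25.9% called). With no filter 0 of 71 were called by edgeR in either direction and 1 had an unadjusted p under 0.05, against 8.82% of all 12240 rows called, 7.75% higher and 1.08% lower. The median log2 fold change of the 52 was -0.02 and that of the 5258 was 1.03, both with TMM.

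More could be said of the 27 rows with at least 20 reads over the 8 libraries, 14 of them H2A, 5 H2B, 4 H3, 2 H4, 1 H3.3-like and 1 without a class. The ratio of read shares pooled over the libraries of each group, on the scale of total counts, was above 1 for 26 of the 27, with a median of 2.02 (quartiles 1.35 and 2.46). Over the 2986 other gene rows with as many reads the median was 3.47 (quartiles 2.01 and 7.57), and 90.3% lay above 1. Of these other rows, 536 had no control read and were given the floor of 3 control reads, against 0 of the 27 histone rows. The cut is on reads over all libraries, so a row can pass it through the deeper FOG-3 group alone. The gap between the 2 medians therefore also depends on the cut, the floor and depth. Of the 27 histone rows, 1 had every FOG-3 library above every control in CPM, against 56.4% of all gene rows with at least 20 reads. The count below every control was 0, against 1.59%. Reads came from the FOG-3 group alone in 17 of all 71 histone rows (23.9%), from the control group alone in 1 and from both in 53, where 56.2% of other gene rows were read in the FOG-3 group alone. These last shares, and those of rows whose groups do not overlap, move with the number of reads in a row and with depth. The 27 histone rows held at most 101 reads each, while the other gene rows had no upper limit. Identical rows, such as his-21 and his-51, are counted separately among the 27. The other 44 rows had 1 to 19 reads each.

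**Figure D3:**
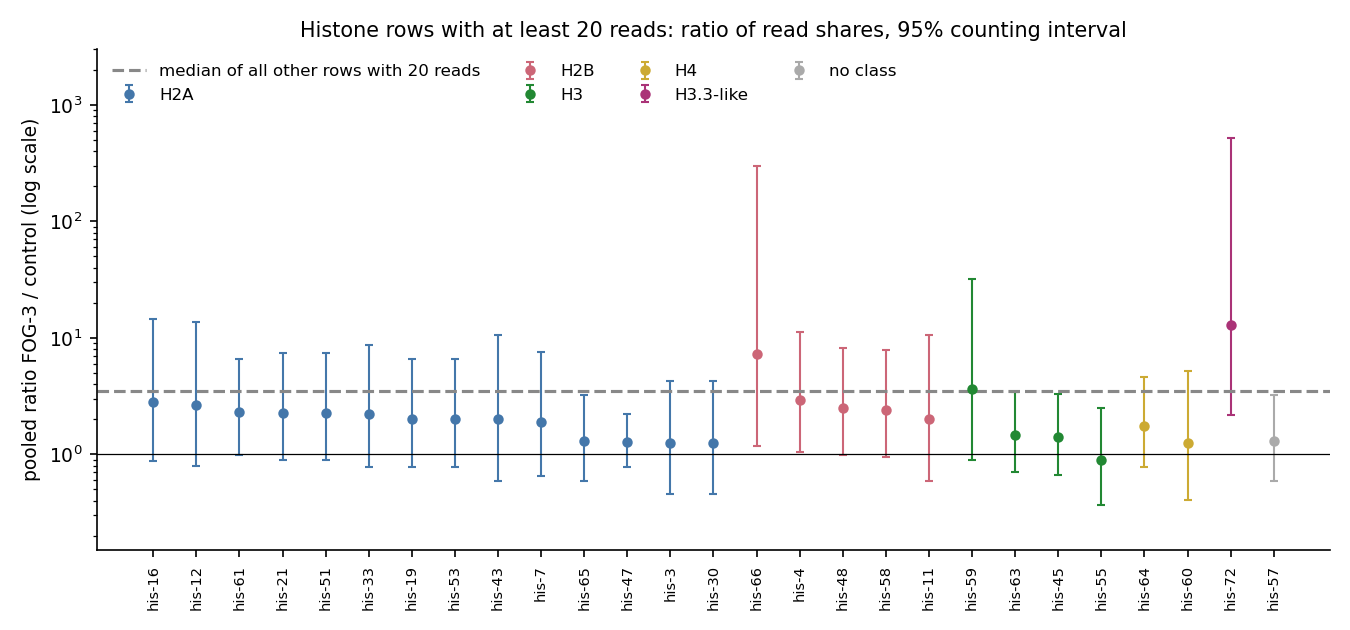
Ratio of pooled read shares, FOG-3 over control, on the scale of total counts (vertical axis, log scale) for the 27 histone rows with at least 20 reads, with 95% counting intervals. The dashed line is the median of all other gene rows with as many reads, 3.47, with a floor of 3 control reads for rows that had none. Most intervals include 1, and the highest ratios are those of the H3.3-like row his-72 (12.9) and the H2B row his-66 (7.26).

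H2A held the most reads of any class, 469 in the FOG-3 group, against 82 in the control group over 15 rows. FOG-3 libraries F1 to F4 had 54, 114, 77 and 224 H2A reads, and controls N1 to N4 had 4, 26, 2 and 50. The class took 0.101% ± 0.0244 of gene-assigned reads in the FOG-3 group and 0.0581% ± 0.0597 in controls (SD, n = 4 each, exact permutation p = 0.229, adjusted p = 0.343 over 6 classes). The control N2, at 0.139%, stood above all FOG-3 libraries, so the groups overlapped. The ratio was 1.74, and 3.26 without control N2. With 4 libraries a group, 1 of 6 classes alone cannot reach an adjusted p below 0.171, and 4 classes would need the smallest p for any to pass. The class sums in the count model entered each identical profile once, unlike the reads and shares given for each class. The profile of his-57 and his-65 was entered under his-57, which has no class, so the H2A sum left out his-65. As a sum, H2A had a log2 fold change of -0.42 ± 0.26 with TMM (edgeR adjusted p = 0.14) and 0.81 ± 0.27 with total counts (edgeR adjusted p = 0.0040). The TMM value turned positive without FOG-3 library F1 (0.16, edgeR adjusted p = 0.59), control N2 (0.19, adjusted p = 0.70) or control N4 (0.15, adjusted p = 0.73).

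The row with the most reads of all was his-47, an H2A gene in the same neighbour group as the H3, H4 and H2B genes his-45, his-46 and his-48. It had 10, 25, 16 and 30 reads in FOG-3 libraries F1 to F4, and 2, 3, 2 and 13 in controls N1 to N4. That is 187.7 ± 58.0 CPM in the FOG-3 group and 133.3 ± 48.3 CPM in controls on total counts (SD, n = 4 each), and the groups overlapped. The log2 fold change of his-47 was -0.83 ± 0.41 with TMM (SE, edgeR adjusted p = 0.058) and 0.38 ± 0.40 with total counts alone (edgeR adjusted p = 0.37). Without FOG-3 library F2 it was -0.96 (edgeR adjusted p = 0.049) and without FOG-3 library F3 -0.95 (adjusted p = 0.031), both past the threshold. Without control N4 it was 0.03 (edgeR adjusted p = 0.97). Per kb of coding length, his-47 had 488.8 CPM in the FOG-3 group and 347.1 CPM in controls. The H2A rows next below it in FOG-3 libraries were his-61, with 243.6 CPM per kb in the FOG-3 group and 117.1 in controls, and his-21 with its twin his-51, with 202.8 and 95.8. The pooled ratios of H2A rows with at least 20 reads ran from 1.26 (his-3 and his-30) to 2.84 (his-16), with his-12 at 2.63, his-33 at 2.21, his-43 at 2.00 and his-7 at 1.89 between them, and the 95% counting interval of each included 1.

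H2B had the highest ratio between the groups among the core classes, without passing the test. FOG-3 libraries F1 to F4 had 67, 32, 16 and 126 H2B reads, and controls N1 to N4 had 0, 0, 1 and 22. The share was 0.0511% ± 0.0291 in the FOG-3 group and 0.00901% ± 0.0139 in controls, a ratio of 5.67 (SD, n = 4 each, exact permutation p = 0.0571, adjusted p = 0.171 over 6 classes). The groups overlapped in that control N4, with 0.0294%, stood above FOG-3 library F3, with 0.0208%. Without N4 the ratio was 22.9. In the count model the H2B sum had a log2 fold change of 0.36 ± 0.37 with TMM (edgeR adjusted p = 0.38) and 1.56 ± 0.37 with total counts (edgeR adjusted p = 4.6e-05). Control N4 held 22 of the 23 control reads, and without it the TMM value was 3.98 (edgeR adjusted p = 5.7e-05). That value rests on the 1 control read left. The whole scale moved as well, since the fit without N4 tested 1117 rows with a median of 1.71. With all libraries it was 889 rows and a median of 0.71.

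Reads of H2B came mainly from 5 rows. The gene his-48 had 9, 6, 1 and 24 reads in FOG-3 libraries F1 to F4, and 0, 0, 0 and 5 in controls N1 to N4. Its near-twin his-58 had the same counts but for 22 reads in F4. In his-4 there were 9, 5, 6 and 17 reads in the FOG-3 group, against 0, 0, 1 and 3 in the control group, in the same order. The pooled ratio of his-4 was 2.92 (95% counting interval 1.05 to 11.3), that of his-48 was 2.52 (0.996 to 8.19) and that of his-11 was 2.00 (0.588 to 10.5). For his-66 it was 7.26 (1.18 to 298.9), from 23 FOG-3 reads and 1 control read. All 5 H2B rows had their highest count in FOG-3 library F4, the deepest, and library F3 had 1 read of his-48 and 0 of his-66.

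The direction of H3 turned with the scaling. FOG-3 libraries F1 to F4 had 43, 26, 41 and 113 H3 reads, and controls N1 to N4 had 16, 7, 6 and 21. The class took 0.0485% ± 0.0149 of gene-assigned reads in the FOG-3 group and 0.0395% ± 0.00997 in controls (SD, n = 4 each, exact permutation p = 0.371, adjusted p = 0.446 over 6 classes), with overlapping groups. The ratio of these shares was 1.23. As a sum, H3 was called lower with TMM and the default filter, with a log2 fold change of -0.84 ± 0.31 (edgeR adjusted p = 0.011). That call was lost with TMM and 1 CPM in at least 4 libraries (-0.36, edgeR adjusted p = 0.47), with no filter (-0.23, adjusted p = 0.66), with TMMwsp (-0.47, adjusted p = 0.23) and with upper-quartile factors (-0.65, adjusted p = 0.053). It was 0.38 ± 0.32 with total counts (edgeR adjusted p = 0.26) and 1.16 ± 0.35 when scaled on the most abundant row (edgeR adjusted p = 0.0012). With TMM it was lost without FOG-3 libraries F1 (-0.45, edgeR adjusted p = 0.20) or F2 (-0.63, adjusted p = 0.084). It was also lost without controls N1 (-0.43, edgeR adjusted p = 0.36), N2 (-0.62, adjusted p = 0.16), N3 (-0.62, adjusted p = 0.13) or N4 (-0.73, adjusted p = 0.073). The call held with limma-voom (-0.84, adjusted p = 0.038) and with identical rows entered once over the table (-0.92, edgeR adjusted p = 0.0053). It also held without FOG-3 libraries F3 (-0.90, edgeR adjusted p = 0.0073) or F4 (-1.03, adjusted p = 0.0030).

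The leading H3 rows, his-63 and his-45, differed from each other by at most 2 reads in any library. The first had 7, 5, 6 and 24 reads in FOG-3 libraries F1 to F4, and 2, 2, 2 and 3 in controls N1 to N4. The H3 rows his-63, his-45 and his-55, like the H2A row his-47, had reads in every control. Levels of his-63 per kb were 209.9 CPM in the FOG-3 group and 210.5 CPM in controls, and those of his-55 were 97.7 and 182.5 CPM. These are means over libraries, in which 2 reads in the shallow control N3 weigh heavily. Pooled over libraries, the ratio of his-63 was 1.47 (95% counting interval 0.706 to 3.44). The row his-55 was the only one of the 27 with a pooled ratio below 1, at 0.901 (95% counting interval 0.366 to 2.52). The H3 row his-59 stood at the other end, at 3.63 (0.896 to 31.7), from 23 FOG-3 reads and 2 control reads.

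The difference in H4 rested on single control libraries and on the scaling. FOG-3 libraries F1 to F4 had 18, 24, 23 and 48 H4 reads, and controls N1 to N4 had 17, 1, 0 and 17. The share was 0.0257% ± 0.00317 in the FOG-3 group and 0.0209% ± 0.0250 in controls (SD, n = 4 each, exact permutation p = 0.857, adjusted p = 0.857 over 6 classes). The 4 FOG-3 libraries lay within 0.0224% to 0.0300%, while controls ran from 0 to 0.0555%, the highest being N1. The ratio of the shares was 1.23, and 2.75 without control N1, which held 17 of the 35 control reads. Without control N2 it was 0.985. With each identical profile entered once, as in the class sum, the ratio was 1.53 (exact permutation p = 0.343), from 91 FOG-3 and 24 control reads. The H4 sum was called lower with TMM and the default filter, with a log2 fold change of -0.93 ± 0.40 (edgeR adjusted p = 0.028), and had 0.29 ± 0.39 with total counts (edgeR adjusted p = 0.50). The call was lost with TMM and 1 CPM in at least 4 libraries (-0.44, edgeR adjusted p = 0.47), with no filter (-0.33, adjusted p = 0.66), with TMMwsp (-0.60, adjusted p = 0.19) and with upper-quartile factors (-0.71, adjusted p = 0.089). With limma-voom it was also lost (-0.52, adjusted p = 0.32). With TMM it was lost too without FOG-3 libraries F1 (-0.51, edgeR adjusted p = 0.28), F2 (-0.81, adjusted p = 0.091) or F4 (-0.91, adjusted p = 0.053). The same held without controls N1 (-0.32, edgeR adjusted p = 0.58), N2 (-0.94, adjusted p = 0.055) or N4 (-0.49, adjusted p = 0.41). The call stayed with identical rows entered once over the table (-1.01, edgeR adjusted p = 0.017). It also stayed without FOG-3 library F3 (-1.08, edgeR adjusted p = 0.011) or control N3 (-0.97, adjusted p = 0.041).

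The H4 gene with the most reads was his-64, which had 5, 9, 9 and 16 reads in FOG-3 libraries F1 to F4, and 3, 0, 0 and 4 in controls N1 to N4. Its pooled ratio was 1.76 (95% counting interval 0.777 to 4.66), and that of his-60, with 16 FOG-3 and 4 control reads, was 1.26 (0.407 to 5.19). Control N1 held 3 reads of his-46 and its twin his-56, where the FOG-3 libraries F1 to F4 held 0, 2, 1 and 4.

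**Figure D4:**
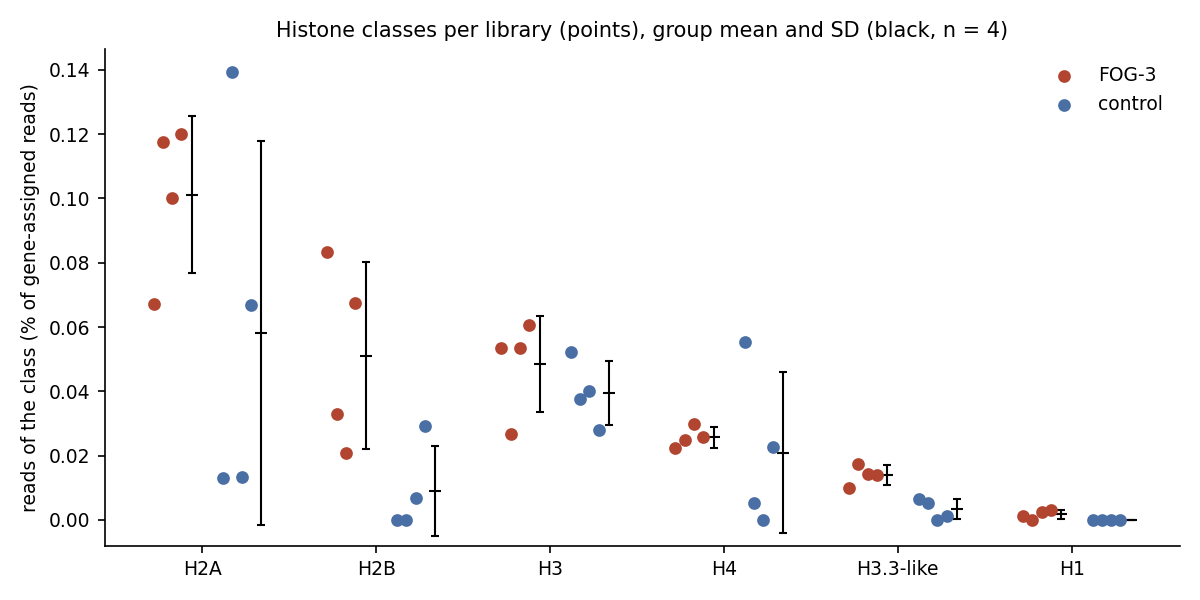
Reads of each histone class as a percent of gene-assigned reads (vertical axis) in 4 FOG-3 and 4 control libraries (points), with group mean and SD in black. The groups overlap for H2A, H2B, H3, H4 and H1. For the H3.3-like rows every FOG-3 library (0.00993% to 0.0175%) lies above every control (0 to 0.00653%).

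The H3.3-like rows were the class whose groups did not overlap as a share of gene-assigned reads. FOG-3 libraries F1 to F4 had 8, 17, 11 and 26 reads over the 4 rows, and controls N1 to N4 had 2, 1, 0 and 1. The share was 0.0139% ± 0.00311 in the FOG-3 group and 0.00330% ± 0.00313 in controls, a ratio of 4.21 (SD, n = 4 each, exact permutation p = 0.0286, adjusted p = 0.171 over 6 classes, which does not pass). Without the 10 most abundant gene rows the ratio was 1.56 (exact permutation adjusted p = 0.557). As a sum with TMM, the class had a log2 fold change of 1.57 with no filter (edgeR adjusted p = 0.16). With 1 CPM in at least 4 libraries it was 1.46 (edgeR adjusted p = 0.10). These values lay 0.43 and 0.42 above the median of the rows tested. With the default filter, the class was tested only in some fits without 1 library. Its value was 1.54 without FOG-3 library F1 (edgeR adjusted p = 0.019, called higher), 0.26 above the median. It was 1.77 without control N1 (edgeR adjusted p = 0.050) and 1.35 without N2 (adjusted p = 0.10). Without control N3 it was 0.98 (edgeR adjusted p = 0.20), with a gap of -0.06 to the median. Without control N4 it was 0.75 (adjusted p = 0.42), with a gap of -0.96. The H3.3 gene his-72 (WBGene00001946) supplied 41 of the 62 FOG-3 reads. It had 5, 9, 7 and 20 reads in FOG-3 libraries F1 to F4, and 0, 0, 0 and 1 in controls N1 to N4. Of the 27 rows it was the single one whose 4 FOG-3 libraries all lay above the 4 controls. Its level on total counts was 88.3 ± 18.9 CPM in the FOG-3 group and 3.34 ± 6.68 CPM in controls (SD, n = 4 each), with a pooled ratio of 12.9 (95% counting interval 2.20 to 523.2). At 88.3 CPM, the controls N1, N2 and N3 would each hold under 3 reads, so a 0 in any 1 of them lies within the floor. The row did not pass the default filter. With 1 CPM in at least 4 libraries, a filter it passed through the FOG-3 libraries alone, it was called higher with a log2 fold change of 2.75 ± 1.04 (edgeR adjusted p = 0.036). With no filter the value was 2.87 ± 1.03 (edgeR adjusted p = 0.057).

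The other H3.3 gene with reads, his-71, had 1, 7, 2 and 6 reads in FOG-3 libraries F1 to F4, and 2, 0, 0 and 0 in controls N1 to N4. Its groups overlapped. The H3.3-like rows his-69 and his-70 held 5 reads and 1 read in all. The H1 gene his-24 had 1, 0, 2 and 6 reads in those FOG-3 libraries and 0 in every control. No fold is given, since these 9 reads are a smaller share of the FOG-3 group's reads than the floor of 3 reads is of the control group's.

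No difference in how the classes divided the histone reads passed the test. With distinct profiles only, H2A was 36.7% ± 9.77 of histone reads in the FOG-3 group and 33.7% ± 23.1 in controls, H2B 19.9% ± 9.52 and 7.95% ± 10.4, H3 20.3% ± 5.23 and 36.8% ± 20.02, and H4 9.89% ± 2.33 and 11.8% ± 14.05 (SD, n = 4 each). The H2A values again left out his-65, whose profile was entered as his-57, without a class. H2B as a part of H2B plus H3 reads, a measure free of library scaling, was 48.3% ± 12.5 in the FOG-3 group and 17.3% ± 26.01 in controls (exact permutation p = 0.114). This was 1 of 7 such measures, and none passed (lowest adjusted p = 0.25). With 4 libraries a group, 1 of the 7 alone cannot go below 0.20, and 5 would need the smallest p for any to pass, so the missed threshold says little. Control N4, the deepest, had 55.0% and lay inside the FOG-3 range of 30.2% to 58.5%, while control N3 rested on 10 histone reads. Whether the TMM values of the H2B, H3 and H4 sums differ from each other was not tested.

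The number of histone rows detected at equal depth went the same way as the pooled share. It comes from the same counts and library totals, with identical rows counted separately, so it adds no separate evidence. At 14964 reads, 25.9 ± 3.00 of the 71 rows were expected in the FOG-3 group and 14.9 ± 6.22 in controls (SD, n = 4 each, exact permutation p = 0.0286), with all FOG-3 libraries at 23.3 rows or more and all controls at 19.9 or fewer. Without FOG-3 libraries F1 or F4 the exact permutation p was 0.0571. With the 10 most abundant gene rows left out, the difference (FOG-3 minus control) was -2.13 rows (exact permutation p = 0.543).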

How the data were processed

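What the authors deposited is 1 table, with raw counts of reads for each gene ID. STAR 2.4.2 and HTSeq are named in the submitters' processing notes. Not given in the sources used here are the build, the annotation, the strand setting, the collapsing of PCR copies and the treatment of reads with several locations. Rows that name no gene (2, holding 12.2% of FOG-3 and 4.08% of control reads) stayed out of library sizes. The members and lists were chosen with earlier results of these data known. All 8 count columns were used. Their names carry a group but no replicate number. The submitters' design text calls the libraries biological replicates, and p-values rest on the spread among these 8.

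Counts were fitted in R 4.3.3 by edgeR 4.0.16 (F test of the quasi-likelihood fit, group only, TMM factors, Benjamini-Hochberg over all rows, called under 0.05). The default filter turns a count of 10 at the median library size into a CPM cutoff. A row must reach that cutoff in at least as many libraries as the smaller group holds (4 with all libraries). It must also hold at least 15 reads in all. Standard errors are the fold change over the square root of F. Alternatives used DESeq2 1.42.0 and limma 3.58.1. The fit was tested on simulated counts with the same depth in every library. This does not cover the differences in depth and in the most abundant row between the groups. Sums replaced the histone rows by 1 row, or 1 per class. In the main and class sums each identical profile was entered once, under the class of its lowest-numbered row. The class sums, the make-up of histone reads, the sum over all 71 rows and the minimum number of reads were chosen after seeing the data. For shares, the absolute difference of means was tested by exact permutation of the group labels (two-sided, 70 arrangements). Named rows passed the filter, had at least 20 reads, led their class, were histone variants or belonged to a set with identical counts. Symbols and lengths come from RefSeq's WBcel235 gene table. A list of histone-related genes outside the block was not analysed here, since no table pairs those IDs with symbols.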

Additional observations from a re-analysis of the deposited data

Results flagged for a closer look

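Dixon's test for a value apart from the other 3 of its group was run on 64 groups, where chance flags about 1 in 20. It marked 1, the H2B row his-66 in FOG-3 library F3, with 0 CPM against 61.8 to 64.3 CPM in the other 3 FOG-3 libraries. The same library also had the lowest read count of the H2B class among the FOG-3 libraries, 16 reads, and 1 read of his-48. The cause was not tested.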

How the results depend on the processing

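No paired analysis was possible because the columns carry no replicate numbers. The pooled share kept its direction and an exact permutation p of 0.0286 with identical rows entered once, with the minimum number of reads, over all reads of the table, without his-47 and on the log2 scale. Its difference was 0.0799 percentage points without the most abundant gene row and -0.182 without the 10 most abundant (exact permutation p = 0.257 and 0.20), and 0.0945 to 0.138 without each library. Rows detected differed by 4.69 (exact permutation p = 0.143) and -2.13 in those settings, and by 7.97 to 12.6 without each library. By class, leaving out the 10 most abundant rows gave -0.100 for H2A, -0.0970 for H3 and -0.0423 for H4, and leaving out the most abundant row gave -0.0128 for H3 and -0.00304 for H4. Without each library H4 ran from -0.00217 to 0.0163, H2A from 0.0281 to 0.0701, H2B from 0.0314 to 0.0522 and H3 from 0.00506 to 0.0163. No class share passed after adjustment in any of these settings, which the number of libraries nearly fixes. For the histone sum (main log2 fold change -0.41), the values were 0.85 with total counts, 0.0190 with TMMwsp, 0.74 with DESeq2 size factors, 1.65 on the most abundant row, 0.73 with DESeq2, 0.23 with no filter, 0.11 with 1 CPM in 4 libraries, -0.49 with identical rows entered once over the table (edgeR adjusted p = 0.034), and -0.53 to 0.23 without each library. Called histone rows numbered 1 higher on the most abundant row and with 1 CPM in 4 libraries, 1 lower with limma-voom and with identical rows entered once, and 0 to 1 lower without each library. The row his-47 had 0.38, 0.35, 1.15 and 0.36 with total counts, DESeq2 size factors, the most abundant row and DESeq2, and -0.96 to 0.03 without each library. In the same order H2A had 0.81, 0.75, 1.601 and 0.64, H3 0.38, 0.32, 1.16 and 0.17, and H4 0.29, 0.24, 1.05 and 0.25. H2A also had 0.18 with no filter, 0.0569 with 1 CPM in 4 libraries and -0.54 to 0.19 without each library. As parts of the histone reads, the difference ran from -3.97 to 13.4 percentage points for H2A and from -5.90 to 4.52 for H4 without each library. What moved these values was not tested. Depth limits every row, with 44 of 71 under 20 reads.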
